A study of Mus musculus with 24 samples.

Results

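The 39 genes described here encode proteins that take a cell into mitosis, build the spindle, attach and part the chromosomes and divide the cell. They were taken by symbol from a list of 40 mitosis and chromosome segregation genes. The list goes by gene name and function and holds no measured value, but it was drawn up with earlier results of these data known. Of the 40, 39 were found among the 10721 genes of the table. The other listed gene, Anln, was not analysed here. The list holds 5 genes of the cyclin and Cdk1 switch, 2 mitotic kinases, 4 chromosomal passenger genes, 4 spindle checkpoint genes, 8 kinesin motors, 7 centromere and kinetochore genes, 3 genes of anaphase and mitotic exit, 4 of spindle assembly and cytokinesis, and 2 of chromosome structure and surface.

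RNA was sequenced from mouse osteoclast precursors grown from bone marrow, with WT and STING-deficient (KO) mice compared. Female mice of 10 to 12 weeks gave the marrow, which was kept for 72 h in mCSF at 40 ng/mL, a growth factor for the macrophage lineage. Day 0 cells (WT day 0, KO day 0) were taken at that point without RANKL, the cytokine that turns precursors into osteoclasts. The remaining cells were plated at 25000 per well with RANKL at 10 ng/mL and mCSF at 20 ng/mL and taken at days 2, 3 and 4, with 3 wells pooled per library. Each genotype had 3 mice (WT mice 480, 529 and 531, KO mice 481, 528 and 532), and every mouse gave all 4 days, so there were 8 groups of 3 libraries and 24 libraries in all. The labels do not describe the mutant allele. All later cultures held RANKL and the lower mCSF dose, so that RANKL, the mCSF change and time in culture cannot be told apart. Values are FPKM, in which fragments are scaled to transcript length and to the number mapped in the library. Differences are on the log2(FPKM + 1) scale, on which the change of a weakly expressed gene is understated. Each value below that is given for 3 libraries is in mouse order, 480, 529, 531 for WT and 481, 528, 532 for KO.

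Mitosis is started by Cdk1 bound to A- and B-type cyclins, and it ends when the anaphase-promoting complex, with Cdc20, marks those cyclins and the inhibitor of separase for destruction. In between, kinesins and their partners build the spindle, kinetochores tie chromosomes to it, and the spindle checkpoint holds back anaphase until all are attached. Most of these genes are transcribed late in the cell cycle, through FOXM1, B-MYB and MuvB complexes that act at CHR elements and through NF-Y at CCAAT boxes, so their summed RNA in a culture is commonly read as a sign of dividing cells. Osteoclast precursors divide under mCSF, and the osteoclasts that form by their fusion are multinucleated cells that have left the cell cycle.

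Facts of the libraries as a whole were as follows. Sequencing depth per library is unknown, since the files give no counts, and the summed FPKM of the table lay between 459180 and 734974 per library. Tmem173, which encodes STING, measured 21.3 to 28.7 FPKM in WT day 0 libraries and 4.57 to 5.08 in KO day 0 libraries. From day 2 to day 4 it lay at 3.38 to 7.35 FPKM in WT and 2.65 to 3.79 in KO, with no overlap between the genotypes on any day. The labelled cell type held up in its markers: 12 osteoclast genes summed to 605 to 728 FPKM in WT day 0 libraries and 46829 to 54973 at day 4, with Acp5 at 19502, 18174 and 19528 FPKM there. Day 0 libraries also carried genes of other marrow cells. The neutrophil list (9 genes in the table) summed to 5897 to 16092 FPKM in WT and 7477 to 12988 in KO at day 0, and to 131 to 221 and 184 to 208 at day 2. The B cell list (8 genes) summed to 95.0 to 203 FPKM at day 0 and 38.7 to 49.7 at day 2 in WT, and to 114 to 206 and 37.7 to 45.6 in KO. No gene of these lists was listed at 0 in all libraries. In bulk RNA, fewer cells of a type and less RNA per cell cannot be told apart.

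The start regions of 7 members that the results below turn on are shown first, because the motifs through which such genes are known to be transcribed lie there. Each run is the 150 bases before an annotated transcription start, 5′ to 3′ on the gene's own strand, from RefSeq on GRCm38.p6. For Top2a the start used lies inside the gene span given further on, so its run overlaps that span. Capitals mark matches on either strand to TTTGAA, the core of the CHR element, to CCAAT, the NF-Y box, and to a pair of E2F-type runs. These runs are TTCGCGC in the first form and, in the other form, TTGGCGC, whose reverse complement can share letters with CCAAT. Birc5 is shown because it fell the most in WT, and it has no match in this stretch.
Cdk1 (chr10:69352913-69353062, minus strand): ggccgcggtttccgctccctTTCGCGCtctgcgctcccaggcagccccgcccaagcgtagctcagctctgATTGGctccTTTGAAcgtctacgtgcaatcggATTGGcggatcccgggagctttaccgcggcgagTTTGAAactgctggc
Ccnb1 (chr13:100786487-100786636, minus strand): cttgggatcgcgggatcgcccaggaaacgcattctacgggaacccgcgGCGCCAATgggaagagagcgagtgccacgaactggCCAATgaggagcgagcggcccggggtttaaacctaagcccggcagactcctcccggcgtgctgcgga
Cdc20 (chr4:118437344-118437493, minus strand): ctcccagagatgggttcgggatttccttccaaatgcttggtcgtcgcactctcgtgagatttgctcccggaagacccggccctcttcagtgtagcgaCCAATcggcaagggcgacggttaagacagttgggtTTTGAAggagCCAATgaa
Ube2c (chr2:164769779-164769928, plus strand): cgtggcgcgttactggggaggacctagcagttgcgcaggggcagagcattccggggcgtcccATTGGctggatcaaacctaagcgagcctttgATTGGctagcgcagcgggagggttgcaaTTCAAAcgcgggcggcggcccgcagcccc
Kif11 (chr19:37376232-37376381, plus strand): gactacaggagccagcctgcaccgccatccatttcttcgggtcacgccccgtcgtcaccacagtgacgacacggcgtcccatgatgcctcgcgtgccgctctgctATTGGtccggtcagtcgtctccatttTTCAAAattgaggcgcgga
Top2a (chr11:99024190-99024339, minus strand): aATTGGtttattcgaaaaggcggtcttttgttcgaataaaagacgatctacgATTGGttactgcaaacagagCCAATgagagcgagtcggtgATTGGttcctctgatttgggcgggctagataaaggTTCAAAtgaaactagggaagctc
Birc5 (chr11:117849087-117849236, plus strand): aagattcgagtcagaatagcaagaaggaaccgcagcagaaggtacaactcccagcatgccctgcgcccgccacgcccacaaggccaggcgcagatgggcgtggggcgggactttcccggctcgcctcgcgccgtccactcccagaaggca

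Over the whole list, 34 of the 39 genes matched 38 start windows of 300 bases (250 before and 50 after the start). Ccna2, Aurkb, Incenp, Tpx2 and Kif20a had no entry. TTTGAA stood in 28 of the 38 windows (73.7%), against 17.9% of all 32851 windows of that length and 12.1% of the 9881 windows of genes in the table. Within 50 bases of the start it stood in 26 windows (68.4%), against 4.94% of all windows. CCAAT stood in 30 windows (78.9%) against 37.4%, and 2 or more CCAAT boxes in 20 windows (52.6%) against 11.7%. Both motifs stood in 24 windows (63.2%), against 6.95% of all windows. The variant CTTGAA stood in 5 windows (13.2%), the same share as in all windows (13.2%). TTCGCGC stood in 1 window (2.63%) against 1.59%, and TTGGCGC in 6 (15.8%) against 2.45%. The 8 matched genes with no TTTGAA in their window were Ccnb1, Birc5, Bub1, Mad2l1, Cenpe, Cenpk, Nuf2 and Nusap1. Their median change from day 0 to day 4 in WT was -1.29 on the log2 scale, and that of the 26 genes with TTTGAA was -1.26. These matches describe letters in a window and show no binding.

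As a group, mitosis genes lay near their day 0 level at day 2 in WT and below it in KO, and were lower at each later step in both genotypes. The genotype difference in this first change passed for no member, as described further on. Without the day 0 library of WT mouse 480, the median WT difference at day 2 was -0.13, with 8 rises and 14 falls. The mean log2(FPKM + 1) over the 39 genes was 4.38, 4.91 and 4.88 in WT day 0 libraries and 4.57 to 4.89 at day 2. It then lay at 3.94 to 4.04 at day 3 and 3.34 to 3.496 at day 4. In KO it was 4.94 to 5.00 at day 0, 4.50 to 4.75 at day 2, 3.81 to 3.92 at day 3 and 3.27 to 3.64 at day 4. Libraries of days 2, 3 and 4 did not overlap on this mean within a genotype, while WT days 0 and 2 did and KO days 0 and 2 did not. As a percentage of the day 0 group mean in FPKM, the median gene stood at 105% at day 2, 55.1% at day 3 and 34.5% at day 4 in WT. In KO the same medians were 85.5%, 45.1% and 30.5%. Day 4 was the lowest group mean for 38 of the 39 genes in each genotype, and for Espl1 day 0 was the lowest. The highest group mean was day 0 for 19 genes and day 2 for 20 in WT, and day 0 for 27 and day 2 for 12 in KO. For 31 genes the highest day was the same in both genotypes.

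**Figure D1:**
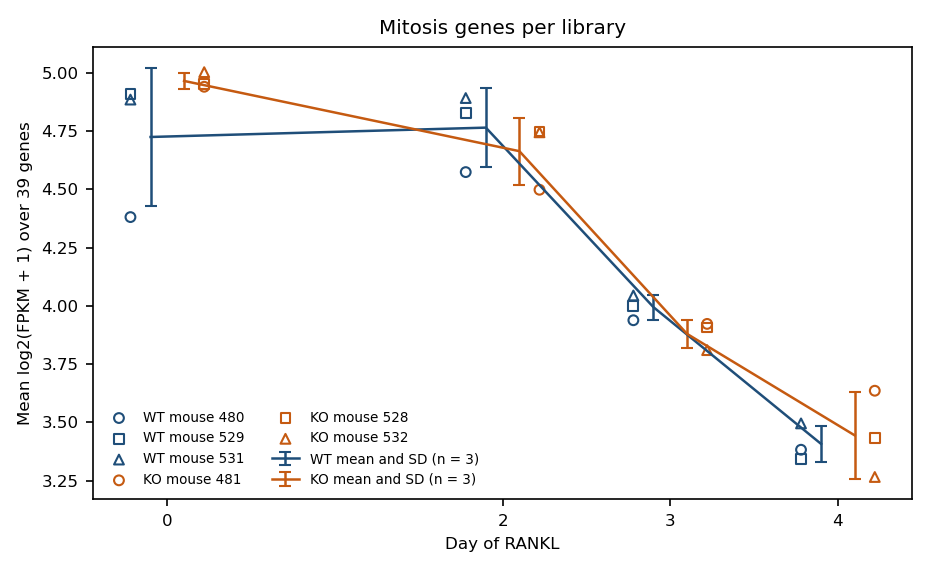
Mean log2(FPKM + 1) over the 39 mitosis genes against day of RANKL, with each library as an open symbol per mouse and the group mean and SD (n = 3) as lines and bars for WT and KO. Days 0 and 2 lie between 4.38 and 5.00, and every day 4 library lies at 3.64 or lower.

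From day 2 to day 3, limma called all 39 genes lower in WT at a Benjamini-Hochberg adjusted p under 0.05, with a median difference of -0.77 (range -1.18 for Ube2c to -0.25 for Espl1). Of all 10081 genes tested, 24.2% fell at this step in WT and the median difference was 0.01. In KO all 39 genes fell too, with a median of -0.78 (Ube2c -1.08 to Espl1 -0.33), against 20.3% of all genes tested. Every one of the 39 genes had day 3 libraries wholly below the day 2 libraries in both genotypes, where 26.5% of all genes in WT and 26.1% in KO showed that. From day 3 to day 4, 38 genes fell in WT (median -0.58), against 19.8% of all genes tested, and Cenpk did not pass (-0.41, adjusted p = 0.0833, limma). In KO 34 fell (median -0.42), against 17.6%. Cenpa, Cenpk, Ndc80, Spc25 and Ect2 did not pass in KO, with differences of -0.27, -0.42, -0.31, -0.28 and -0.29. With mouse as a block, Cenpk passed in WT (adjusted p = 0.0311, limma), and Cenpa, Cenpk and Ndc80 passed in KO (adjusted p = 0.0271, 0.0303 and 0.0303). This KO count was 20 without KO mouse 528 and also 20 with equal weights for all libraries, and all 39 differences were negative. The steps share libraries, since day 2 and day 3 each enter a pair of them.

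Over the whole course, 37 genes fell from day 0 to day 4 in WT and 1 rose (median -1.31), against 42.7% of all genes tested that fell and 39.2% that rose. In KO 38 fell and none rose (median -1.60), against 40.8% that fell and 38.6% that rose. Birc5, a survival factor and passenger protein, was the lowest gene in WT at 15.1% of its day 0 mean. Cdca3, an activator of mitotic entry, was the lowest in KO at 15.9%. Espl1, which encodes separase, was the highest at 156% in WT and 115% in KO. It rose in WT (0.54, SE 0.110, adjusted p = 1.37e-04, limma) and did not pass in KO (0.18, adjusted p = 0.140). With a length trend described further on removed from every library, Espl1 did not pass in WT (-0.051, adjusted p = 0.697) and fell in KO (-0.32, adjusted p = 0.0177, limma). Mki67, the source of the Ki-67 proliferation antigen, did not pass in WT (-0.14, adjusted p = 0.555) and fell in KO by 0.77 (SE 0.225, adjusted p = 0.00415). With the same trend removed, Mki67 fell in WT too. The table's median FPKM lay between 9.85 and 10.7 in all libraries, and with each library shifted to the same median log2 value the medians were -1.35 in WT and -1.64 in KO.

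**Figure D2:**
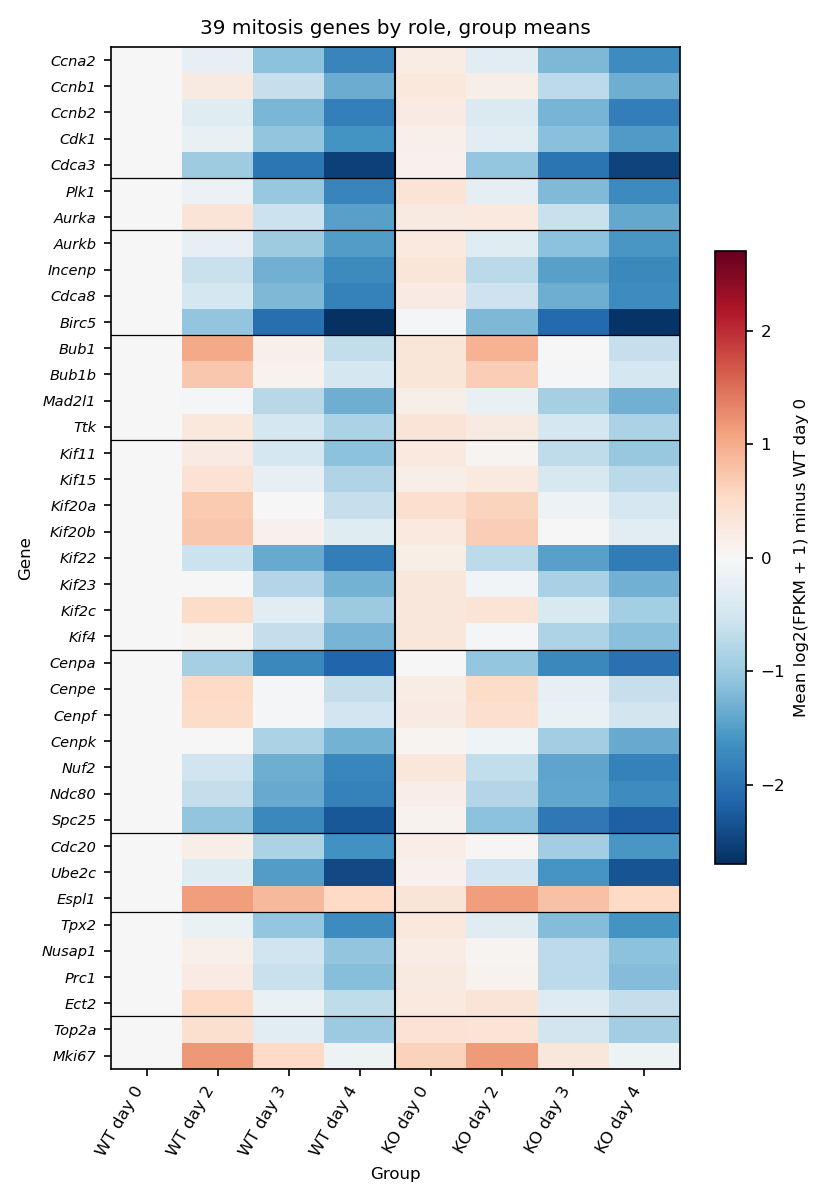
Group mean log2(FPKM + 1) minus the WT day 0 mean for each of the 39 genes (down, ordered by role, lines between roles) in the 8 groups (across), red above and blue below WT day 0. Day 3 and day 4 columns are blue for most genes in both genotypes, and day 2 columns hold both colours.

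The 5 genes of the cyclin and Cdk1 switch all fell from day 2 to day 3 and from day 3 to day 4 in both genotypes. Cdk1, the kinase that starts mitosis (minus strand, chr10:69335146-69352912, GRCm38), measured 33.6, 59.1 and 63.4 FPKM at day 0, 38.0, 41.8 and 51.2 at day 2, 23.7, 23.6 and 23.5 at day 3, and 15.6, 13.9 and 18.2 at day 4 in WT. In KO, Cdk1 measured 53.5, 61.3 and 51.8 FPKM at day 0, 35.3, 44.8 and 41.7 at day 2, 23.6, 23.9 and 20.2 at day 3, and 19.0, 16.8 and 14.4 at day 4. Each day 3 library was below each day 2 library, and each day 4 library below each day 3 library, in both genotypes. The day 3 step was -0.85 in WT (SE 0.125, adjusted p = 1.50e-05, limma) and -0.82 in KO (SE 0.125, adjusted p = 2.45e-05). At day 2 the WT libraries overlapped those of day 0 (-0.21, adjusted p = 0.348), with mouse 480 at 33.6 FPKM at day 0. Ccnb1, the B-type cyclin that activates Cdk1 at mitotic entry (chr13:100778739-100786486), measured 12.6, 20.7 and 18.8 FPKM at day 0, 18.4, 19.4 and 23.3 at day 2, 10.6, 9.99 and 11.6 at day 3, and 6.56, 5.62 and 6.26 at day 4 in WT. In KO it measured 22.5, 19.5 and 20.8 FPKM at day 0, 17.4, 19.4 and 20.7 at day 2, 10.3, 10.5 and 9.23 at day 3, and 6.99, 6.61 and 5.25 at day 4. Its level did not pass at day 2 in either genotype, and it then fell by 0.86 in WT and 0.87 in KO (adjusted p = 1.48e-06 and 1.35e-06, limma). Ccna2, the cyclin of S phase and early mitosis, went from a WT mean of 81.3 ± 25.6 FPKM (SD, n = 3) at day 0 to 21.9 ± 1.29 at day 4. Ccnb2, the second B-type cyclin, went from 71.3 ± 7.43 to 19.2 ± 1.77.

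Of these 5 genes, Cdca3 and Ccnb2 fell already at day 2 in both genotypes, and Ccna2 fell in KO and did not pass in WT. At this step 37.5% of all genes tested fell in WT and 36.5% in KO. Ccnb2 had 63.1, 77.6 and 73.2 FPKM at day 0 and 51.2, 54.8 and 62.8 at day 2 in WT (-0.34, adjusted p = 0.0354), and 90.2, 77.4 and 81.2 and 50.4, 56.0 and 55.01 in KO (-0.61, adjusted p = 5.81e-04, limma). Its days did not overlap in either genotype, and its WT call was lost with the length trend removed (0.066). Cdca3, an adaptor for destruction of the Cdk1-inhibiting kinase Wee1, had the largest day 2 fall of the 5. Its WT values were 95.7, 136 and 144 FPKM at day 0, 54.7, 62.0 and 74.2 at day 2, 31.4, 33.5 and 28.3 at day 3, and 21.3, 18.6 and 22.5 at day 4. All WT day 2 libraries lay below all WT day 0 libraries, a difference of -0.96 (SE 0.201, adjusted p = 2.46e-04, limma). Its KO values were 133, 143 and 128 FPKM at day 0, 52.6, 64.0 and 62.6 at day 2, 30.8, 34.4 and 27.5 at day 3, and 25.9, 20.3 and 17.7 at day 4, again without overlap, with a day 2 difference of -1.16 (adjusted p = 3.25e-05, limma). The day 4 means were 20.8 ± 2.02 FPKM in WT and 21.3 ± 4.23 in KO (SD, n = 3).

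Both mitotic kinases fell after day 2. Plk1, which matures centrosomes and drives mitotic entry and exit (chr7:122159435-122169884), measured 30.9, 46.3 and 45.4 FPKM at day 0, 30.1, 41.8 and 36.8 at day 2, 18.8, 19.7 and 19.0 at day 3, and 11.9, 9.60 and 11.7 at day 4 in WT and had KO means of 52.1 ± 6.08 FPKM at day 0, 33.4 ± 4.84 at day 2, 17.0 ± 0.662 at day 3 and 11.5 ± 1.60 at day 4 (SD, n = 3). It fell by 0.87 and then 0.75 in WT, and by 0.93 and 0.52 in KO, with adjusted p from 2.43e-06 to 0.00112 in limma. At day 2 it did not pass in WT (-0.16, adjusted p = 0.436) and fell in KO (-0.63, adjusted p = 0.00431), a pair of results whose difference is tested further on. Aurka, the spindle pole kinase (chr2:172356190-172370886), measured 29.2, 46.1 and 48.6 FPKM at day 0, 43.6, 55.7 and 57.6 at day 2, 27.2, 26.3 and 26.8 at day 3, and 13.7, 12.5 and 15.6 at day 4 in WT. It was the gene with the steepest KO fall from day 3 to day 4, -0.79 (SE 0.105, adjusted p = 1.73e-05, limma), from 25.8, 28.5 and 24.6 FPKM to 16.3, 14.9 and 13.3.

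The chromosomal passenger complex joins the kinase Aurora B (Aurkb) to the scaffold Incenp and to Birc5 and Cdca8, which place it at centromeres. All 4 genes fell at both later steps in both genotypes. Birc5, also known as survivin (plus strand, chr11:117849237-117855743), measured 174, 218 and 310.2 FPKM at day 0, 90.6, 104 and 135 at day 2, 49.97, 57.3 and 57.5 at day 3, and 33.1, 29.6 and 43.2 at day 4 in WT. In KO it measured 217, 263 and 192 FPKM at day 0, 84.5, 113 and 95.3 at day 2, 52.7, 59.0 and 46.9 at day 3, and 41.5, 37.2 and 28.6 at day 4. Every day stood below the preceding day without overlap in both genotypes. Its total WT change of -2.67 (a 6.37-fold fall, SE 0.247, adjusted p = 5.43e-09, limma) was the most negative of the 39. Incenp and Cdca8 also fell at day 2 in both genotypes, a step at which 37.5% of all genes tested fell in WT and 36.5% in KO. Incenp went from 54.8, 67.4 and 58.3 FPKM at day 0 to 34.1, 43.8 and 41.1 at day 2 in WT (-0.59, adjusted p = 5.29e-04) and from 78.3, 67.9 and 79.6 to 31.5, 37.3 and 38.7 in KO (-1.05, adjusted p = 7.20e-07, limma). Aurkb overlapped between days 0 and 2 in WT, at 23.5, 39.5 and 32.0 and 24.2, 25.4 and 29.8 FPKM, and fell in KO (-0.59, adjusted p = 0.00549, limma).

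**Figure D3:**
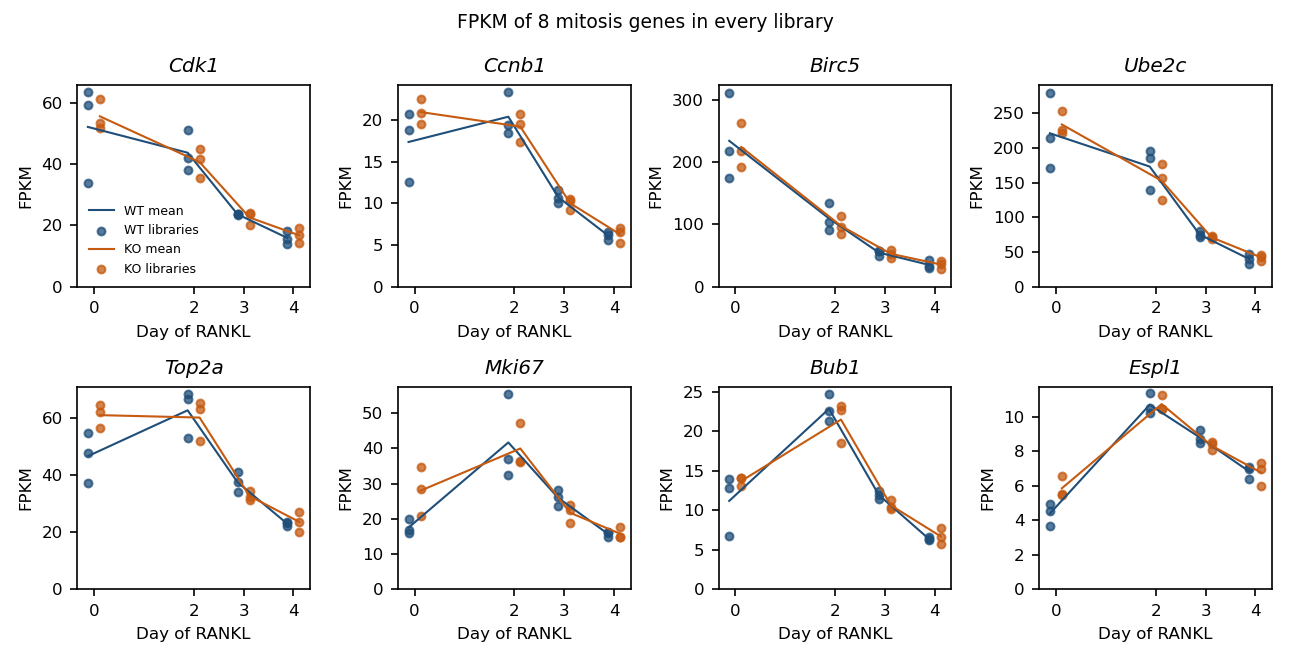
FPKM of 8 members (Cdk1, Ccnb1, Birc5, Ube2c, Top2a, Mki67, Bub1, Espl1) in each of the 24 libraries against day of RANKL, points for libraries and lines for group means of WT and KO, each panel with its own linear axis from 0. Birc5 falls from day 0 on, while Bub1, Mki67 and Espl1 are highest at day 2.

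Spindle checkpoint genes were split at day 2 and alike afterwards. Bub1 and Bub1b, the checkpoint kinase and BubR1, rose from day 0 to day 2 in both genotypes, and Mad2l1 and Ttk did not pass in either. All genes tested were split at this step too, with 38.5% that rose and 37.5% that fell in WT. In KO these shares were 37.1% and 36.5%. Bub1 (chr2:127800197-127831859) measured 6.76, 12.8 and 13.9 FPKM at day 0, 21.2, 22.5 and 24.7 at day 2, 11.9, 11.3 and 12.5 at day 3, and 6.18, 6.31 and 6.58 at day 4 in WT. Its 3 WT day 2 libraries were all above the day 0 libraries, a rise of 1.02 (SE 0.171, adjusted p = 1.93e-05, limma), and its KO rise was 0.61 (adjusted p = 0.00338). Bub1b had day 0 and day 2 values of 18.4, 23.9 and 16.2 and 29.5, 34.7 and 34.2 FPKM in WT, and 29.0, 19.8 and 25.2 and 29.1, 32.1 and 32.7 in KO. Mad2l1, which sequesters Cdc20, ranged widely at day 0, at 31.8, 64.7 and 71.9 FPKM in WT and 41.5, 73.1 and 69.6 in KO, so that its day 2 difference of -0.04 in WT had an SE of 0.214. From day 2 on all 4 fell at each step. Ttk, the kinase that recruits the checkpoint to kinetochores, went from a WT day 2 mean of 7.29 ± 0.751 FPKM to 2.77 ± 0.350 at day 4 (SD, n = 3).

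The 8 kinesin motors all fell at both later steps in both genotypes. From day 0 to day 2, Kif15 (a spindle motor), Kif20a and Kif20b (motors of late mitosis) and Kif2c (a microtubule depolymerase) rose in WT and Kif22 fell. In KO, Kif20b rose, and Kif22, Kif23 and the chromosome-bound motor Kif4 fell. Of all genes tested, 38.5% rose and 37.5% fell at this step in WT, and 37.1% and 36.5% in KO. Kif11, the motor that pushes spindle poles apart (chr19:37376382-37421863), measured 12.1, 20.0 and 18.2 FPKM at day 0, 17.0, 20.3 and 20.7 at day 2, 10.9, 10.98 and 12.7 at day 3, and 6.84, 7.30 and 7.11 at day 4 in WT and did not pass at day 2 (0.22, adjusted p = 0.246), then fell by 0.70 and 0.63. In KO its values were 16.6, 20.9 and 22.2 FPKM at day 0, 15.9, 18.5 and 17.9 at day 2, 10.3, 10.1 and 9.26 at day 3, and 9.20, 7.40 and 6.26 at day 4, with mouse 481 at 9.20 FPKM at day 4 near the day 3 libraries. Kif20a had 16.8, 22.1 and 15.7 FPKM at day 0 and 26.8, 33.1 and 30.0 at day 2 in WT (0.70, adjusted p = 7.20e-04, limma), with no overlap. Kif22, which moves chromosome arms away from the poles (chr7:127027729-127042467), showed the opposite, 34.9, 44.4 and 46.6 FPKM at day 0 and 22.6, 27.8 and 33.4 at day 2 (-0.58, adjusted p = 0.0148, limma). Kif23, a subunit of centralspindlin in the midzone, had WT means of 21.4 ± 4.67, 21.4 ± 3.41, 11.7 ± 0.443 and 8.14 ± 0.556 FPKM (SD, n = 3) on days 0, 2, 3 and 4. From day 0 to day 4 the group's median difference was -1.04 in WT and -1.25 in KO.

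Kinetochore genes were split at day 2 too, a step at which 38.5% of all genes tested rose and 37.5% fell in WT. In KO these shares were 37.1% and 36.5%. Cenpa, Nuf2, Ndc80 and Spc25 fell from day 0 to day 2 in both genotypes, Cenpe (a kinetochore motor) and Cenpf rose in WT and did not pass in KO, and Cenpk, of the inner kinetochore, did not pass in either. Cenpa, the histone variant that marks the centromere (chr5:30666877-30674837), measured 65.6, 84.6 and 104 FPKM at day 0, 41.0, 39.3 and 52.5 at day 2, 25.4, 23.7 and 23.99 at day 3, and 17.1, 16.8 and 20.4 at day 4 in WT. It did not overlap between days 0 and 2, with a difference of -0.91 (adjusted p = 1.99e-04), and -1.03 in KO (adjusted p = 5.18e-05, limma). Ndc80, the microtubule-binding subunit of the outer kinetochore, had 18.5, 23.7 and 25.1 FPKM at day 0 and 11.1, 14.1 and 17.2 at day 2 in WT. Spc25, which anchors the complex of Ndc80 and Nuf2, reached 46.2% of its day 0 mean at day 2 in WT and 42.4% in KO, the lowest share of the 39 genes in each. Cenpf, a large outer kinetochore protein (chr1:189640606-189688107), was the weakest member, with 3.10, 3.24 and 3.10 FPKM at day 0, 4.52, 5.54 and 4.55 at day 2, 2.81, 2.93 and 3.39 at day 3, and 1.88, 2.01 and 1.75 at day 4 in WT. It rose at day 2 in WT by 0.50 (SE 0.131, adjusted p = 0.00193, limma). The split went in part with transcript length. The 4 genes that fell have principal transcripts of 1194 to 2405 bases, and Cenpe and Cenpf have 7910 and 11130. Cenpk, with 1217 bases, did not pass, at 97.7% of its day 0 mean in WT and 85.5% in KO. With the length trend removed, the WT differences of Cenpe (-0.042) and Cenpf (-0.20) were below 0 and did not pass, and Cenpf fell in KO (-0.42, adjusted p = 0.0148, limma). Cenpf's lowest value in the series was 1.74 FPKM. All 7 genes fell from day 2 to day 3 in both genotypes, against 24.2% of all genes tested in WT and 20.3% in KO. From day 3 to day 4, 6 fell in WT and 3 in KO, against 19.8% and 17.6%. With mouse as a block, Cenpk also passed in WT, and Cenpa, Cenpk and Ndc80 also passed in KO. The genotype difference in this last change was called for none of them.

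The genes of anaphase and mitotic exit held both ends of the range. Ube2c, the ubiquitin-conjugating enzyme of the anaphase-promoting complex (chr2:164769929-164772902), measured 171, 214 and 279 FPKM at day 0, 139, 185 and 196 at day 2, 74.9, 80.0 and 71.6 at day 3, and 39.8, 32.5 and 47.5 at day 4 in WT. In KO it measured 226, 254 and 222 FPKM at day 0, 125, 157 and 177 at day 2, 69.6, 73.0 and 71.4 at day 3, and 46.1, 43.0 and 37.6 at day 4. Its fall from day 2 to day 3 was the steepest of the 39 in each genotype, -1.18 in WT (adjusted p = 6.53e-07) and -1.08 in KO (adjusted p = 2.19e-06, limma). Cdc20, the complex's activator and the target of the checkpoint, had 35.6, 47.0 and 46.3 FPKM at day 0, 42.4, 47.0 and 54.5 at day 2, 24.8, 22.4 and 22.04 at day 3, and 12.5, 11.9 and 15.2 at day 4 in WT, which did not pass at day 2 (0.16, adjusted p = 0.420). It fell by 1.02 and then by 0.77 at the next steps. Espl1, the protease that cuts cohesin (chr15:102296254-102324357), had 3.65, 4.93 and 4.55 FPKM at day 0, 10.5, 11.3 and 10.2 at day 2, 8.69, 8.47 and 9.24 at day 3, and 7.07, 6.40 and 6.96 at day 4 in WT. In KO it had 5.46, 5.51 and 6.55 FPKM at day 0, 10.5, 10.4 and 11.3 at day 2, 8.52, 8.05 and 8.39 at day 3, and 7.29, 5.95 and 6.99 at day 4. All day 2 libraries were above all day 0 libraries, a rise of 1.13 in WT and 0.78 in KO (adjusted p = 1.70e-08 and 2.96e-06, limma), and the values then fell at each step without returning to the day 0 level in WT.

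Of the spindle assembly and cytokinesis genes, Tpx2, Nusap1, Prc1 and Ect2 all fell from day 2 to day 3 in both genotypes. Tpx2, which activates Aurora A at the spindle (chr2:152847964-152895321), measured 27.1, 38.5 and 38.95 FPKM at day 0, 24.8, 33.8 and 33.8 at day 2, 16.03, 16.8 and 15.7 at day 3, and 10.2, 8.90 and 10.7 at day 4 in WT and fell by 0.87 and 0.65 at the later steps. At day 2 it did not pass in WT (-0.17, adjusted p = 0.411) and fell in KO (-0.62, adjusted p = 0.00559, limma). Ect2, the RhoA activator of the cleavage furrow, had 3.75, 10.0 and 9.20 FPKM at day 0 and 9.61, 11.2 and 11.3 at day 2 in WT. Its day 2 difference of 0.53 lay just outside the threshold (adjusted p = 0.050001, limma), and passed with mouse as a block (adjusted p = 0.0395). Prc1, which bundles midzone microtubules, had WT means of 38.0 ± 6.18 FPKM at day 2 and 13.97 ± 1.52 at day 4 (SD, n = 3). Nusap1, a spindle microtubule binder, had 21.0 ± 2.86 and 8.49 ± 0.726.

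Top2a and Mki67, the genes of chromosome structure and surface, were highest at day 2 in WT. Top2a, the topoisomerase that untangles sister chromatids (chr11:98992947-99024199), measured 37.3, 54.7 and 47.9 FPKM at day 0, 53.1, 66.6 and 68.6 at day 2, 33.9, 37.5 and 41.1 at day 3, and 22.1, 23.1 and 23.4 at day 4 in WT. In KO it measured 64.4, 56.7 and 62.0 FPKM at day 0, 52.1, 65.2 and 63.3 at day 2, 34.5, 32.2 and 31.2 at day 3, and 27.1, 23.4 and 20.2 at day 4. Its WT rise at day 2 was 0.43 (SE 0.170, adjusted p = 0.0275, limma) with overlapping libraries, and its KO difference was -0.02 (adjusted p = 0.898). Mki67, which coats mitotic chromosomes (chr7:135689784-135716450), had 15.8, 19.9 and 16.7 FPKM at day 0, 37.0, 55.5 and 32.5 at day 2, 23.5, 26.2 and 28.0 at day 3, and 16.2, 15.97 and 14.8 at day 4 in WT. In KO it had 34.7, 20.7 and 28.4 FPKM at day 0, 36.5, 36.0 and 47.3 at day 2, 22.6, 18.7 and 23.8 at day 3, and 17.7, 14.8 and 14.7 at day 4. Mki67 had the largest day 2 rise of the list in WT, 1.18 (SE 0.229, adjusted p = 1.06e-04, limma), and returned at day 4 to values that overlapped day 0.

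The first step, from day 0 to day 2, thus moved the members in both directions, as it did the genes of the whole table. In WT 11 rose, 10 fell and 18 did not pass (median 0.07), against 38.5% of all genes tested that rose and 37.5% that fell. In KO 5 rose, 17 fell and 17 did not pass (median -0.20), against 37.1% and 36.5%. The members that rose in both genotypes were Bub1, Bub1b, Kif20b, Espl1 and Mki67. The balance in WT depended on single mice: 10 rose and 5 fell without WT mouse 529 (median 0.17), 9 and 9 without WT mouse 480 (median -0.017), and 9 and 10 without WT mouse 531 (median 0.08). Without only the day 0 library of WT mouse 480, 8 rose and 14 fell (median -0.13). The KO balance moved too, to 2 that rose against 14 that fell when either KO mouse 528 or KO mouse 532 was left out. Leaving out KO mouse 481 gave 7 against 12. Leaving out WT mouse 531, which enters through the shared spread, gave 3 against 16. At this step the neutrophil list also fell (9 of 9 genes in each genotype), as did the B cell list (7 of 7 tested) and the granulocyte and monocyte progenitor list (5 of 6 tested in WT, 6 of 6 in KO). The summed progenitor level lay at 82.7 to 102 FPKM at day 0 and 3.99 to 5.88 at day 2 in WT, and at 117 to 135 and 5.00 to 6.17 in KO. The part of these cells in the day 2 results was not tested.

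Long and short members moved apart at day 2. The median member's principal transcript was 2965 bases long, from 947 for Birc5 to 11130 for Cenpf. In WT the 20 genes up to that length had a median day 2 difference of -0.28, with 1 that rose and 9 that fell. The 19 longer genes had a median of 0.43, with 10 that rose and 1 that fell. All tested genes with a length showed the same direction when split there, with medians of -0.32 over 5202 shorter genes and 0.35 over 4803 longer ones. In KO the members' medians were -0.62 and 0.08, and those of all genes -0.27 and 0.31. Across the 39 genes, Pearson's r of the WT difference with log length was 0.685 and Spearman's rho 0.680, given as a description over genes of the same libraries. At the step from day 2 to day 3 all 20 shorter and all 19 longer genes fell, with WT medians of -0.83 and -0.71. From day 0 to day 4 the medians were -1.79 over shorter and -0.82 over longer members in WT, and -1.90 and -0.94 in KO. Those of all genes were -0.47 and 0.37 in WT and -0.37 and 0.33 in KO. With a smooth length trend taken out of every library, an alternative added after seeing the data, 10 members rose and 7 fell at day 2 in WT, and 2 rose and 18 fell in KO. Of these calls, 13 in WT and 17 in KO were among those above. The calls lost were Ccnb2, Cdca8, Kif15, Kif22, Cenpe, Cenpf, Ndc80 and Top2a in WT, and Aurkb, Bub1b, Kif20b, Ube2c and Mki67 in KO. With the trend removed Espl1 still rose at day 2 in WT and Birc5 and Cdca3 still fell, while from day 0 to day 4 38 genes fell in WT and 39 in KO. Of the called genes, the direction turned without a call for Ccnb2 (0.066), Cenpe (-0.042) and Cenpf (-0.20) at day 2 in WT, for Mki67 (-0.10) at day 2 in KO and for Espl1 (-0.051) from day 0 to day 4 in WT. The differences of Cenpf at day 2 (-0.42) and of Espl1 from day 0 to day 4 (-0.32) in KO, which were above 0 and had not passed, turned into called falls. Median long-minus-short values of all genes in the single libraries lay between -0.69 and -0.28 at day 0 and between -0.07 and 0.31 on later days. The cause of the length trend was not tested.

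**Figure D4:**
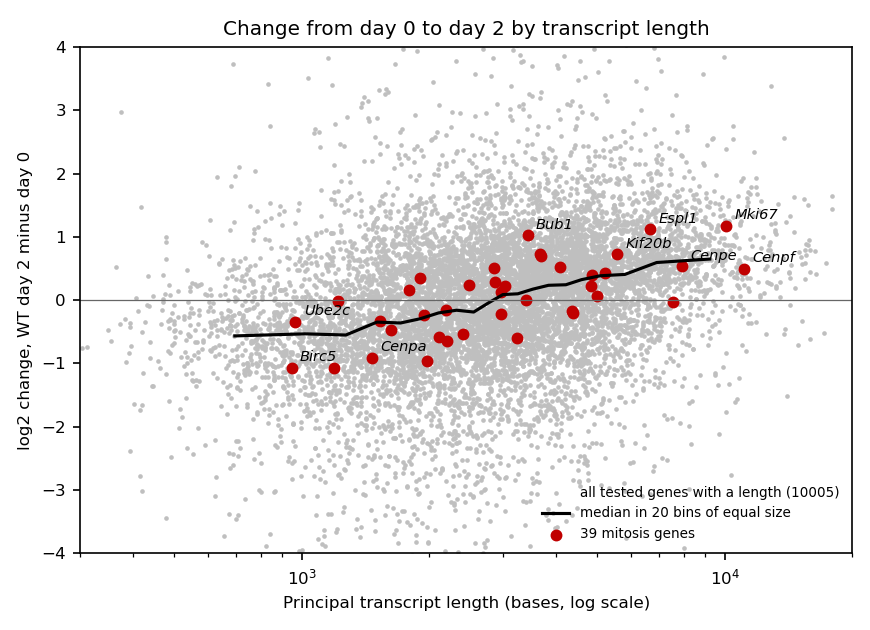
Difference from day 0 to day 2 in WT, on the log2(FPKM + 1) scale, against principal transcript length (log axis) for all tested genes with a length (grey), their median in 20 bins (black line) and the 39 mitosis genes (red). Members under about the list's median length of 2965 bases lie mostly below 0 and longer ones above, along the line for all genes, and 138 genes lie beyond the axis limits.

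KO and WT cultures were compared on each day to ask whether the loss of STING moved these genes, and limma called none of the 39 on any day, here or under any alternative run. Unadjusted p was under 0.05 for 3 members at day 0, none at day 2, 2 at day 3 and none at day 4. Of all genes tested, 0.0992% were called at day 0, 0.0298% at day 2, 0.0198% at day 3 and 0.0298% at day 4. At day 0 the median difference of KO minus WT was 0.25, with 38 of 39 positive. Without WT mouse 480 it was 0.06, with 27 positive. At day 2 the median was -0.11 and at day 3 -0.11, with 38 of 39 negative on each day. At day 4 it was 0.03 with 28 positive. Of all genes tested, 52.0% were negative at day 0, 53.1% at day 2, 50.2% at day 3 and 42.1% at day 4. The members were measured in the same libraries, so these counts are not separate results. Leaving out each mouse in turn gave medians of 0.06 to 0.35 at day 0, -0.195 to -0.015 at day 2, -0.15 to -0.095 at day 3 and -0.055 to 0.13 at day 4. The lowest at day 0 was without WT mouse 480. Without KO mouse 481 the day 2 median was nearest 0 (-0.015) and the day 4 median was negative (-0.055), and without WT mouse 531 the day 2 median was -0.034. The median SE of a member was 0.224 at day 0, 0.121 at day 2, 0.102 at day 3 and 0.113 at day 4, so that differences of these sizes were not detectable gene by gene.

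Mki67 had the largest day 0 difference, 15.8, 19.9 and 16.7 FPKM in WT and 34.7, 20.7 and 28.4 in KO (0.63, SE 0.284), with all KO libraries higher. Espl1 was also higher in all KO libraries at day 0, at 5.46, 5.51 and 6.55 FPKM against 3.65, 4.93 and 4.55 (0.35, SE 0.138). In all, 8 members had KO day 0 libraries wholly above WT, namely Cenpf, Kif20b, Tpx2, Nuf2, Incenp, Espl1, Top2a and Mki67, against 2.23% of all genes tested. At day 3, 12 members had KO libraries wholly below WT, against 3.51% of all genes, among them Kif11 (10.9, 10.98 and 12.7 FPKM in WT, 10.3, 10.1 and 9.26 in KO), Plk1, Bub1 and Mad2l1. No member lay wholly below WT at day 0 or wholly above it at day 3, where 3.65% and 3.96% of all genes did. The genotype differences went with transcript length. Spearman's rho over the members was 0.474 at day 0 and -0.514 at day 3, and over all genes with a length 0.403 and -0.485. Of the 8 genes at day 0, Nuf2 has a principal transcript of 2405 bases and the others 3236 to 11130. With the length trend removed, the member median was 0.24 at day 0 and -0.11 at day 3. Overlap was not examined with the trend removed. At day 2 no member was without overlap, against 1.64% of all genes wholly above and 2.27% wholly below, and at day 4 none was, against 2.34% and 1.64%. The day 0 library of WT mouse 480 had the lowest mean over the members of the 6 day 0 libraries (4.38), and also the highest neutrophil sum (16092 FPKM) and a B cell sum of 203 FPKM. KO mouse 481 had a B cell sum of 206 FPKM at day 0 with a member mean of 4.94. Whether the mixture of cells moved the member values was not tested.

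**Figure D5:**
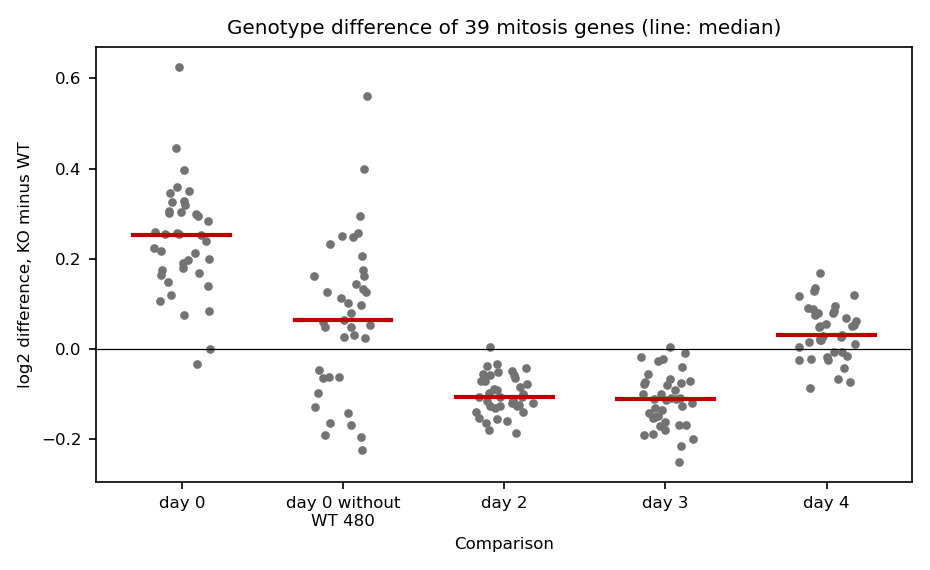
Difference KO minus WT on the log2(FPKM + 1) scale for each of the 39 genes (points) on days 0, 2, 3 and 4, and for day 0 without WT mouse 480, with a red line at the median. Medians are 0.25, -0.11, -0.11 and 0.03 for the 4 days and 0.06 for day 0 without WT mouse 480.

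The genotype difference in the change between days was tested itself, and limma called no member at any step. For the change from day 0 to day 2 the median over members was -0.35 with 39 of 39 negative (3 with unadjusted p under 0.05), against 0.0397% of all genes called, and -0.17 without the day 0 library of WT mouse 480. Mki67 was the most negative member, at -0.66. Of all genes tested, 49.4% were negative for this change and 44.4% for that from day 3 to day 4. For day 2 to day 3 the median was 0.00 (no unadjusted p under 0.05), and for day 3 to day 4 it was 0.16 with 36 positive (3 with unadjusted p under 0.05), and no gene of the table was called at either step. Leaving out each mouse in turn gave medians of -0.39 to -0.26 for the change from day 0 to day 2, -0.11 to 0.066 for day 2 to day 3 and 0.077 to 0.20 for day 3 to day 4, the 0.077 without KO mouse 481. That last median was 0.11 without WT mouse 529. The differing day 2 calls of Plk1, Tpx2, Aurkb, Cenpf, Kif20a and others in WT and KO were therefore not shown to differ.

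Other genes of the cell cycle followed the members to differing degrees. Among 74 further mitosis genes, 69 fell and none rose from day 2 to day 3 in WT, and 70 fell and none rose in KO, against the 24.2% and 20.3% of all genes that fell. Of 29 DNA replication genes, 29 fell in WT and 28 in KO at that step. Over day 0 to day 4, 61 of the 74 fell and 3 rose in WT (median -1.16), and 28 of the 29 replication genes fell (median -1.19), against 42.7% of all genes. Pcna, the replication clamp, went from 319.7, 511 and 508 FPKM at day 0 to 75.1, 77.1 and 81.7 at day 4 in WT. Among the transcription factors of mitotic genes, Foxm1 had WT values of 10.3, 14.8 and 11.002 FPKM at day 0, 15.2, 20.0 and 14.5 at day 2, 9.13, 8.96 and 9.32 at day 3, and 5.64, 5.37 and 5.53 at day 4. Mybl2, which encodes B-MYB, had 2.47, 5.40 and 3.92 FPKM at day 0, 11.5, 13.5 and 13.1 at day 2, 5.94, 5.41 and 5.92 at day 3, and 3.22, 2.26 and 2.56 at day 4 in WT, with a day 2 rise of 1.52 and a fall of 1.02 at day 3 (adjusted p = 9.94e-07 and 1.94e-06, limma). Of 16 such regulators, 12 fell and 2 rose from day 2 to day 3 in WT. Of all 10081 genes tested, 24.2% fell and 2512 genes rose at this step. The 2 regulators that rose were Tfdp2 and Rbl2, a pocket protein of resting cells, and with the length trend removed 1 regulator rose.

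Of 13 subunits of the anaphase-promoting complex, 8 fell and none rose from day 2 to day 3 in WT, against 24.2% of all genes that fell, with a median of -0.17. Of 9 cohesin genes, 9 rose from day 0 to day 2 in WT and 5 in KO, against 38.5% and 37.1% of all genes. From day 0 to day 4, 7 cohesin genes rose and none fell in WT, and 5 rose and 1 fell in KO, against 39.2% and 38.6% of all genes that rose. With the length trend removed, 4 cohesin genes rose at day 2 in WT and 3 in KO, and at day 4 5 rose and 3 fell in each. Pds5a, a cohesin regulator, went from 4.50, 9.86 and 4.22 FPKM at day 0 to 29.0, 34.9 and 23.5 at day 2 in WT and stood at 25.7, 26.4 and 21.5 at day 4. Of 8 CDK inhibitors, Cdkn2b, Cdkn2a and Cdkn1b rose from day 0 to day 4 in both genotypes and 4 fell in each, shares near the 39.2% and 42.7% of all genes in WT and the 38.6% and 40.8% in KO. Cdkn2b, which blocks the cyclin D kinases, had WT values of 0.457, 1.74 and 1.17 FPKM at day 0, 14.9, 18.8 and 16.9 at day 2, 19.5, 22.7 and 20.4 at day 3, and 28.1, 27.4 and 27.1 at day 4. The rise from day 0 to day 4 was 3.796 in WT and 3.43 in KO (adjusted p = 1.39e-13 and 6.38e-13, limma). Cdkn1b, the p27 inhibitor, rose from day 2 to day 3 by 0.57 in WT and 0.49 in KO. Cdkn1a, which encodes p21, fell with the mitosis genes, from 98.8, 158 and 180.2 FPKM at day 0 to 52.5, 52.9 and 64.4 at day 4 in WT (-1.31, adjusted p = 1.35e-06, limma). Of 15 genes of G1 and S phase entry, 10 fell and 3 rose from day 0 to day 4 in WT, against 42.7% and 39.2% of all genes, and 10 fell and 2 rose in KO, against 40.8% and 38.6%. E2f1, a driver of S phase entry, was among those that fell, from 41.8, 45.7 and 52.2 FPKM to 13.6, 12.5 and 13.2 in WT.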

How the data were processed

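Bulk RNA-seq libraries of 8 groups (2 genotypes, 4 days, 3 mice each) were compared. Per the submitters' processing notes, the authors used HISAT2 2.0.5, Cufflinks 2.2.1 and Cuffdiff with mm10. For trimming, strandedness, annotation and the rule that selected the table's 10721 genes, details were not given in the sources used here. Each deposited value is the FPKM of a gene in a library, as the authors computed it. Such values keep no fragment counts, so depth is unknown and overlapping or antisense genes cannot be told apart.

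From these FPKM, log2(FPKM + 1) was fitted in limma 3.58.1 (R 4.3.3) with a mean per group, weights estimated per day and a trended prior, over the 10081 genes whose mean reached 1 FPKM in 1 group or more. All 39 members passed that filter, and the lowest group mean of a member was 1.88 FPKM. Adjusted p (Benjamini-Hochberg over all genes tested) under 0.05 was a call. The step was tested on simulated data. Comparisons were KO against WT on each day, each day against an earlier one within a genotype, and the genotype difference of each step, 15 in all, and each was repeated under 13 other settings and 2 added after seeing the data. This main fit had no term for mouse and treated the libraries of each mouse on different days as independent. Its p-values were therefore set by scatter within groups, in which differences between mice, cultures and library preparations cannot be separated. The mouse number marks the same animal on each day. Over all genes tested, deviations from group means of libraries from the same mouse correlated with a median of 0.136 in WT, where 10 of 18 pairs passed 0.1. In KO this median was 0.261, and 17 of 18 pairs passed 0.1. Over the 39 members the medians were 0.080 in WT (8 of 18 pairs passed) and 0.41 in KO (13 of 18). Between different mice the members' medians were 0.018 in WT and -0.22 in KO. The members and the lists were chosen with earlier results of these data known. Any member could be named. Of other lists, genes were named among those with the smallest adjusted p in each direction. E2f1, Foxm1, Mybl2, Cdkn1a, Cdkn1b and Pds5a were also followed on other days, chosen after their values were seen. Transcript length is that of the longest APPRIS principal transcript in GENCODE vM21.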

Additional observations from a re-analysis of the deposited data

How the results depend on the processing

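Counts of called members stayed within 1.5 times of those reported, except from day 3 to day 4 in KO, where 20 members fell with equal weights and 20 without KO mouse 528, and leaving out each mouse in turn gave 20 to 36. Counts in 1 direction moved more from day 0 to day 2. In WT the count was 15 (10 rose, 5 fell) without WT mouse 529, 19 (9 rose, 10 fell) without WT mouse 531 and 22 (8 rose, 14 fell) without the day 0 library of WT mouse 480, and 15 to 22 when leaving out each mouse in turn. In KO the rises and falls were 2 and 14 without KO mouse 528 or 532, 3 and 16 without WT mouse 531, 7 and 12 without KO mouse 481, and 2 and 18 with the length trend removed. With the length trend removed, chosen, as was leaving out that day 0 library, after seeing the data, Ccnb2 (0.066), Cenpe (-0.042) and Cenpf (-0.20) at day 2 in WT, Espl1 (-0.051) from day 0 to day 4 in WT, and Mki67 (-0.10) at day 2 in KO turned direction. Under the same setting Cenpf at day 2 (-0.42) and Espl1 from day 0 to day 4 (-0.32) in KO turned from uncalled positive values into called falls. For the other counts, leaving out each mouse gave 38 to 39 from day 2 to day 3 in each genotype, 31 to 38 from day 3 to day 4 in WT, 34 to 38 from day 0 to day 4 in WT, 38 in KO, 16 to 25 from day 0 to day 2 in KO, and 0 in each comparison of the genotypes.

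With mouse as a replicate block, the calls that changed were all gains: Aurka (adjusted p = 0.0495) and Ect2 (0.0395) from day 0 to day 2 in WT, Cdk1 (0.0282) in KO, Cenpk (0.0311) from day 3 to day 4 in WT, and Cenpa (0.0271), Cenpk (0.0303) and Ndc80 (0.0303) in KO, all in limma. The blocked counts were 23 from day 0 to day 2 in each genotype, 39 from day 3 to day 4 in WT and 37 in KO, and the block changed no other call. Without counts the depth behind each FPKM is unknown, and day 0 libraries had the lowest weight (0.355, against 1.203 to 1.70 on later days).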
